A study of Mus musculus with 4 samples.

Results

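The Cd4 locus was examined in the Egr2 binding maps of 2 mouse T cell populations, as the listed regions that overlap a window of 90 kb on chromosome 6 (mm9 genome build). The window starts 54.7 kb before the NKT region described below and ends 32.3 kb after it. The injected-thymocyte list held 1 such region among 4216 and the NKT list held 1 among 1996, so 2 of the 6212 listed regions were members. The window was chosen by the tag counts of the NKT region, whose control tags had been seen to outnumber its ChIP tags. The ChIP and control values below therefore describe that choice and carry no test. Cd4 (gene identifier 12504) encodes the co-receptor of helper T cells. In the reference gene order it lies between Gpr162 and Lag3, which encode an orphan receptor and an inhibitory receptor of T cells.

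Egr2, also called Krox-20, binds GC-rich DNA through zinc fingers. Signals from the T cell antigen receptor (TCR) induce it, and it is needed for the development of natural killer T (NKT) cells, which recognise lipids on CD1d. One library was an Egr2 ChIP from NKT cells, enriched with CD1d tetramers from Va14tg mice, an average of 10 mice per experiment. The other was an Egr2 ChIP from thymocytes of 3 to 5 mice, collected 24 hours after an injection of 500 µg of antibody against TCRβ, which gives a strong receptor signal in vivo. The strain label is Va14tg for both, and also for the input DNA and IgG ChIP libraries of the series, so no library is labelled as coming from mice without the transgene. Each ChIP started from 20000000 cells. Mice were pooled, and there was 1 library per condition. Comparisons between the libraries therefore have no replicate behind them, and every interval below covers counting error only. The lists hold no expression values, so the cell labels were not checked against marker genes.

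Cd4 is switched on and off during thymocyte development by a promoter, upstream enhancers and a silencer in the first intron. The same elements are widely used to drive transgenes in T cells. Va14tg mice carry a rearranged invariant TCRα chain that directs many thymocytes into the NKT lineage, and a Va14tg line in common use expresses that chain from Cd4 regulatory DNA. The labels give the strain name and no construct, so whether the transgene of these mice contains the DNA listed here is not known from them. A control library counts DNA fragments without selection for Egr2, so DNA present in more copies than the reference genome holds gives more tags in the ChIP and in the control column alike.

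In NKT cells the Cd4 region spanned chr6:124834746-124837706, a width of 2961 bp, with its summit at position 124836419. It held 659 ChIP tags and 975 control tags. After scaling by the factor that the list itself implies (1.14), the ChIP to control tag ratio was 0.768 (95% exact interval 0.694 to 0.848). Control tags scaled in this way correspond to 859 ChIP tags, more than the 659 counted. Over the whole region, the NKT library thus had no excess of ChIP tags over the control. At the summit the order was the opposite. The authors' ChIP tag density there was 93.5 and their control density 18.8, a deposited fold of 4.99. That fold was below the list median of 10.2, and 1668 of 1996 regions, Cd4 included, had a fold as high or higher.

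In injected thymocytes the region was narrower, at chr6:124836013-124836429, a width of 417 bp, with its summit at position 124836305. It held 39 ChIP tags and 14 control tags. The scaled ratio, with a list factor of 0.742, was 2.07 (1.10 to 4.12), so the ChIP tags exceeded the control by a margin whose lower bound lies close to 1. The ChIP density at the summit was 13.5 and the control density 5.06, a fold of 2.67. That fold lies near the lowest of the list, 2.50, and 26 of 4216 regions, Cd4 included, had a fold as low or lower.

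**Figure D1:**
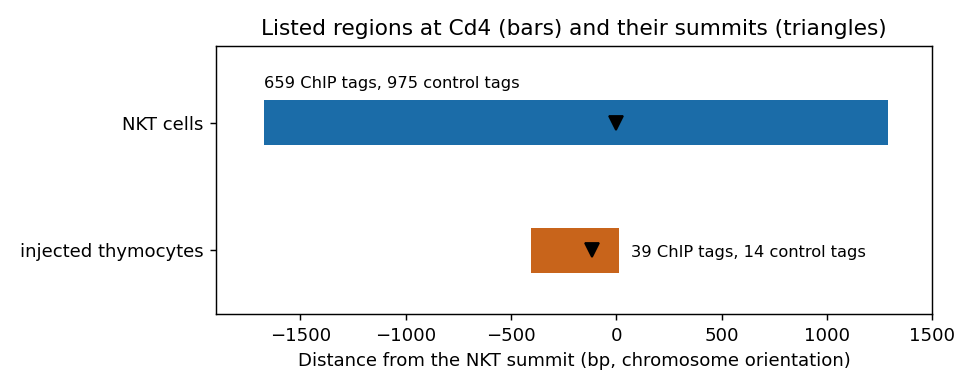
Listed regions at Cd4 in each library, drawn by distance in bp from the NKT summit, with triangles at the summits and the tag counts beside the bars. The 417 bp region of injected thymocytes lies wholly inside the 2961 bp region of NKT cells, and the summits are 114 bp apart.

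The thymocyte region lay wholly within the NKT region and covered 14.1% of it. Such overlap by at least 1 bp was seen for 8.42% of injected-thymocyte regions and 17.7% of NKT regions. The NKT summit fell inside the thymocyte region, 10 bp from its end, and the summits were 114 bp apart. The Cd4 regions would not be counted as the same site if summits within 100 bp or a reciprocal overlap of 50% were required. The thymocyte peak carries number 2 within its region; a peak number 1 of that region was not analysed here. The mm9 position of the Cd4 exons and elements was not used here, so the regions are given by position and not as promoter, intron or silencer.

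The NKT region stood at the extreme of its list in most tag measures. Among 1996 listed regions it had the highest ChIP density, control density, ChIP tags, control tags, width and control tags per kb. Regions before number 44, which this region carries, were not analysed here. It held 975 of 10957 control tags counted over all listed NKT regions, or 8.90% (8.37% to 9.45%), but 1.76% of the ChIP tags (1.63% to 1.90%) and 0.825% of the covered bases. The next highest region held 242 control tags, and the median region held 4. By ChIP tags the next highest held 362 and the median 15. The excess over other regions was thus greater in the control column than in the ChIP column, which restates the tag ratio by which the locus was chosen. In injected thymocytes the Cd4 region held 0.108% of the control tags over listed regions (0.0588% to 0.180%) and 0.0404% of the ChIP tags (0.0287% to 0.0552%).

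**Figure D2:**
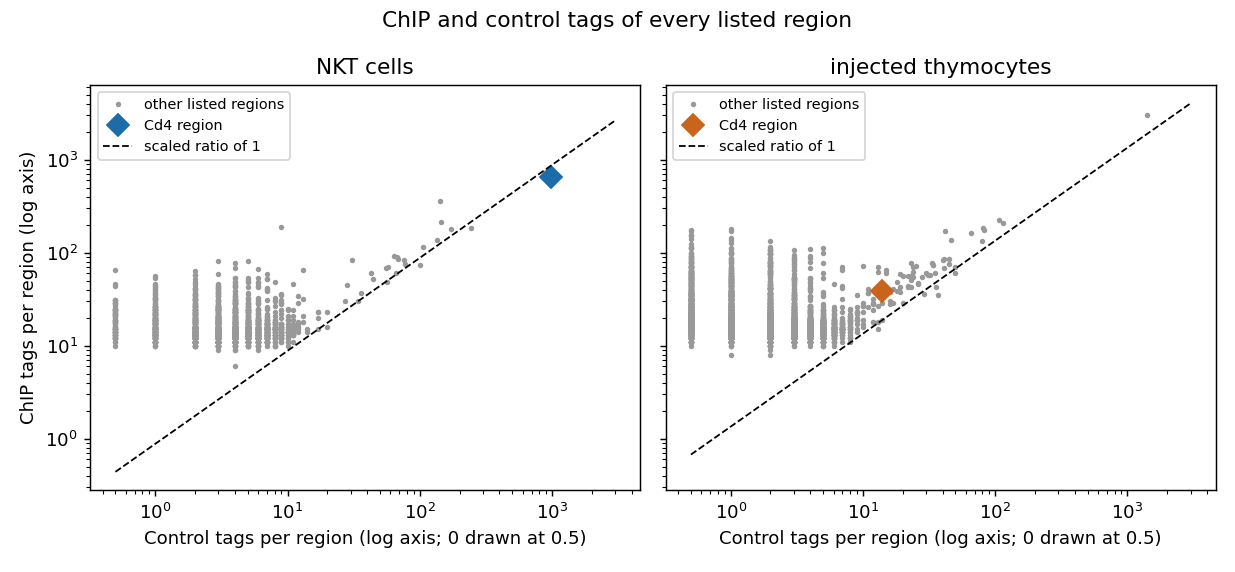
Control tags (x axis) and ChIP tags (y axis) of every listed region in NKT cells and injected thymocytes, on log axes, with the Cd4 region as a diamond and a dashed line where the scaled ratio is 1. The NKT region, at 975 control and 659 ChIP tags, lies below the line and far to the right of the other NKT regions, and the injected-thymocyte region, at 14 and 39, lies above it.

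More scaled control tags than ChIP tags were counted in 5 NKT regions, or 0.251% of the list, and in 5 injected-thymocyte regions, or 0.119%. The Cd4 region is 1 of the NKT regions by the choice described above. It was the single region of these 10 whose counting interval lay wholly below 1. It also held the most control tags of them, which makes its interval the narrowest, and its ratio was not the lowest. The other 4 NKT regions were chrX:166429995-166431521, with 184 ChIP and 242 control tags (ratio 0.863, 0.709 to 1.05), chr1:90124554-90125494, with 73 and 100 (0.829, 0.605 to 1.13), chr1:90204325-90204875, with 48 and 57 (0.956, 0.638 to 1.43), and chr14:43998379-43998545, with 16 and 20 (0.908, 0.440 to 1.85). Their ChIP densities, between 10.8 and 12.8, lay close to the list median of 11.1, whereas that of the Cd4 region was 8.44 times the median. The injected-thymocyte regions with a ratio below 1 held 13 to 50 control tags each, and the Cd4 region was not among them. Of these, chr4:146804823-146805423 had the most, with 61 ChIP and 50 control tags (0.905, 0.612 to 1.34). The lowest ratio of all 10 was in the same list at chr4:3006805-3007290, with 35 ChIP and 37 control tags (0.702, 0.429 to 1.14).

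A control density of 5 or more was found at 18 NKT regions (0.902%) and 21 injected-thymocyte regions (0.498%), and Cd4 was among them in both lists. In injected thymocytes its control density of 5.06 ranked 19 of 4216 from the top and was 10.6 times the list median of 0.479. Over the whole thymocyte region the control was less raised: its 33.6 control tags per kb were 2.69 times the list median, and 487 of 4216 regions (11.6%) had as many or more. In NKT cells its 18.8 was 18.6 times the median of 1.01. In 3 NKT regions (0.15%) the control density was at least as high as the smallest ChIP density listed, with Cd4 ahead of chr11:3003335-3004809 at 16.5 and chr12:48934855-48935126 at 13.96. In injected thymocytes 2 regions (0.0474%) did so, chr11:3030672-3038880 at 24.5 and chr5:147072452-147073008 at 15.9, and the Cd4 value was well below both. By chromosome, 5 of the other 17 raised regions in NKT cells and 6 of the other 20 in injected thymocytes were on chromosome 1, and 1 and 5 were on the X chromosome. Cd4 was the sole raised region of chromosome 6 in NKT cells, where the highest control density of the other 103 regions was 4.13. In injected thymocytes 1 other region of chromosome 6 had a raised control density, of 6.77.

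At Cd4 the NKT summit and the NKT region as a whole gave opposite pictures, and this contrast was compared with other regions. The lowest deposited fold was 2.50 in each list, so every listed region with a tag ratio below 1 shows such a contrast. The deposited fold at the summit was divided by the scaled tag ratio of the region. A high quotient means that the ChIP to control ratio was higher at the summit than over the region. The quotient contains the tag ratio by which the locus was chosen, so its size at Cd4 is a description and supports nothing. With a tag ratio below 1 it could not fall below about 2.50 in either list. For the NKT region it was 6.50. Among the 1003 NKT regions with a control density of at least 1, the median was 1.81 (quartiles 1.30 and 2.49), and 6 regions, Cd4 included, reached 6.50. Over the other 17 NKT regions with raised control density, all with a tag ratio above 1, it ran from 0.895 to 2.85. Over the 4 other NKT regions with a tag ratio below 1, which share the trait that chose Cd4, it was 2.82, 3.28, 3.54 and 7.61, the last at chr1:90204325-90204875 and higher than at Cd4. In the 5 injected-thymocyte regions with such a ratio it ran from 2.79 to 7.81. In injected thymocytes the quotient at Cd4 was 1.29, below the median of 1.69 over 1612 regions. The quotient was thus high in the wide NKT region and below the list median in the narrower thymocyte region. The difference between the libraries was not tested.

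**Figure D3:**
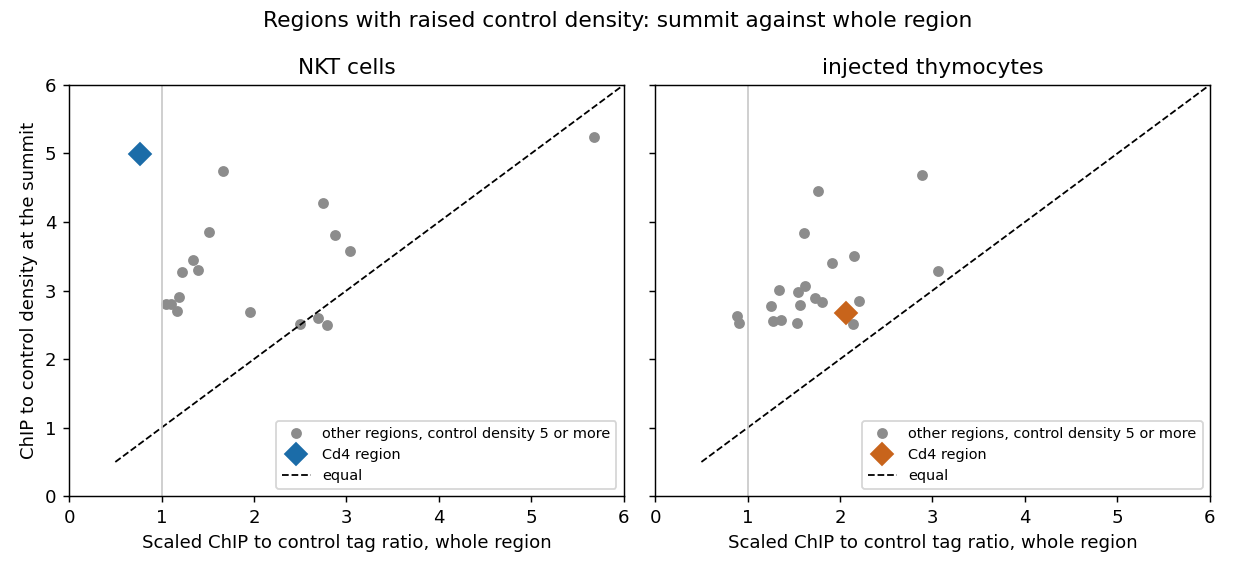
Regions with a control density of 5 or more, with the scaled tag ratio of the whole region on the x axis and the ChIP to control density at the summit on the y axis, for 18 NKT and 21 injected-thymocyte regions. The NKT Cd4 region (diamond) is the only point left of 1 in its list, at 0.768, with a summit fold of 4.99. The injected-thymocyte Cd4 region, at 2.07 and 2.67, lies among the other points.

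Control tags in overlapping regions could be set side by side between the lists, as tags per kb of each region. The regions of a pair can differ in extent, and at Cd4 2961 bp are set against 417 bp. The Cd4 region had 329 control tags per kb in NKT cells and 33.6 in injected thymocytes, 9.81 times as many (5.82 to 18.0). Over the lists as a whole the medians were 25.3 and 12.5, a ratio of 2.03. Of the 355 other overlapping pairs, 253 had a control tag in the thymocyte region, and their median ratio was 1.78 (quartiles 0.969 and 3.20). A ratio as high as at Cd4 occurred in 3 of them, which rested on 1 thymocyte control tag and on 5 to 9 NKT control tags each. In the 11 other pairs with over 50 NKT control tags, on chromosomes 1, 13 and X, the ratio ran from 1.38 to 3.20.

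Clusters of raised control signal outside chromosome 6 showed a smaller difference between the lists. Listed regions within chr1:90108246-90206910 held 87.8 control tags per kb in NKT cells (12 regions) and 40.6 in injected thymocytes (55 regions), 2.16 times as many. Within chrX:166414937-166431521 the values were 146 and 52.1, and within chr13:120277289-120284238 they were 97.7 and 52.1, or 2.80 and 1.87 times as many. These clusters thus had raised control signal in both lists. Cd4 in injected thymocytes, at 33.6 per kb, had a lower value than each cluster. That value rests on 14 control tags, and the control density at its summit, 5.06, was among the raised ones. A raised region inside the chromosome 1 cluster, chr1:90133710-90135206, held 30.7 per kb in injected thymocytes. In NKT cells Cd4 was higher than each cluster. These clusters were chosen after their values were seen.

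**Figure D4:**
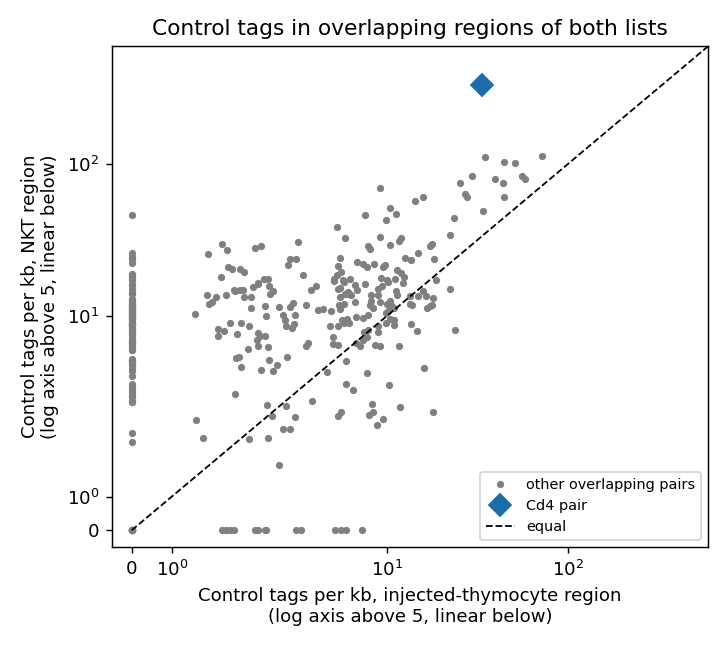
Control tags per kb in each pair of overlapping regions, injected thymocytes on the x axis and NKT cells on the y axis, with log axes above 5 and linear axes below. The Cd4 pair (diamond) lies at 33.6 and 329, above the highest of the other pairs in NKT cells while several of them exceed it in injected thymocytes.

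ChIP tags differed less than control tags at Cd4, which follows from the lower ChIP to control tag ratio of the NKT region. The NKT region held 223 ChIP tags per kb and the thymocyte region 93.5, a ratio of 2.38 (1.72 to 3.38). The list medians were 102 and 107. In the other 355 overlapping pairs the median ratio was 0.773 and the highest 2.05, so none reached the value at Cd4. Within the NKT list 4 of 1996 regions, Cd4 included, had as many ChIP tags per kb. In injected thymocytes the Cd4 value was below the list median, and 908 of 4216 regions had as few or fewer. The windows differ in width by 7.10 times, and tag counts for parts of the NKT region were not analysed here. A narrow region called around a summit leaves out its flanks, and the part of region width in both ratios was not tested.

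The labels do not say whether input or IgG DNA was the control of either list. At 57 pairs of summits at most 10 bp apart, the control densities of the lists had no constant ratio. In the 11 pairs where both were at least 0.5, the NKT to thymocyte ratio ran from 0.224 to 2.78. This spread cannot show whether the lists shared a control library. Paired summits could lie up to 10 bp apart, and control tags were few, with list medians of 4 (NKT) and 2 (thymocyte) per region. Ratios could therefore vary even with a shared control. The 9.81-fold difference in control tags at Cd4 cannot be told apart from a difference between the control libraries themselves.

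The strand shift, the offset between tags of the forward and reverse strand, and the strand correlation were not used to choose the locus. At the Cd4 peak the shift was 83 bp in NKT cells and 79 bp in injected thymocytes. The list medians were 45 bp and 86 bp. The NKT peak thus had a longer shift than most of its list (172 of 1996 peaks had a shift as long or longer), close to that of the thymocyte peak and beyond the upper quartile, 81 bp, of the 354 NKT peaks that overlap a thymocyte region. The thymocyte peak had a shift shorter than the median of its own list, and 1250 of 4216 peaks had a shift as short or shorter. The strand correlation of the peak was 0.791 in NKT cells and 0.803 in injected thymocytes, both below the list medians of 0.886 and 0.884.

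**Figure D5:**
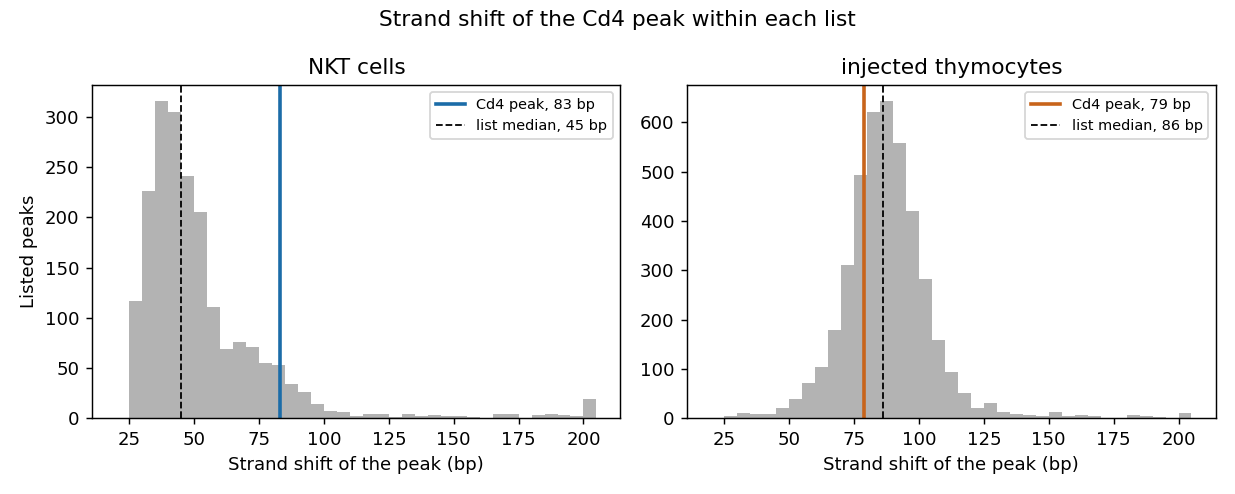
Distribution of the peak strand shift (x axis, bp) over all listed peaks (y axis, number of peaks) in NKT cells and injected thymocytes, with the Cd4 peak as a coloured line and the list median as a dashed line. The Cd4 peak lies at 83 bp against a median of 45 bp in NKT cells and at 79 bp against 86 bp in injected thymocytes.

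Taken over the whole NKT region, the strand values looked different from those of its peak. The region's shift was 122 bp and its correlation 0.107, and 38 of the 1996 regions had a correlation as low or lower. Low correlation went with width: in the 8 NKT regions at least 1000 bp wide it ran from 0.107 to 0.295. Cd4 had the lowest correlation over the region among these 8 and the highest at the peak, where the others ran from 0.384 to 0.713. It also had the highest fold at the summit among them, 4.99 against 2.70 to 4.74 in the others. All of these were below the median fold of the whole NKT list, 10.2. In injected thymocytes the region's shift of 77 bp and correlation of 0.669 were near the values of its peak.

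The deposited q values separated the libraries further. The NKT peak had a −log10 q of 75.6, a value reached by 95 of the 1996 listed peaks, and the NKT region 2481. The injected-thymocyte peak had a −log10 q of 0.725, a q of 0.188. Its region had 47.9, a value reached by 488 of 4216 regions, Cd4 included. Of the 4216 injected-thymocyte peaks, 23 (0.546%) had a q above 0.05, and the Cd4 peak was 1 of them. In NKT cells 45 peaks (2.25%) had such a q, without Cd4. Among the other regions with raised control density, 7 of 20 in injected thymocytes and 4 of 17 in NKT cells had a peak q above 0.05. At Cd4 the thymocyte library thus gave a listed peak, number 2 of its region, with a q above 0.05 at a raised control density. The region around it had a far higher −log10 q. The NKT library gave a tall summit within a wide region that held more control tags than ChIP tags. How a high control enters the authors' q values is not stated in the labels.

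No other listed region lay within the window or within 50 kb of it in either list. The nearest NKT regions were chr6:124606484-124606618, with 14 ChIP tags and 1 control tag, 230 kb from the Cd4 summit, and chr6:125120840-125120973, with 17 and 6, at 284 kb. In injected thymocytes the nearest was chr6:124997711-124997867, with 15 ChIP tags and 1 control tag, at 161 kb. On the other side it was chr6:122776341-122776583, with 26 ChIP tags and no control tag, at 2060 kb. Control densities at these 4 neighbours were between 0 and 2.81. The highest was at the NKT region 284 kb away, above the upper quartile of the NKT list, 1.78. None of these neighbours reached a control density of 5. How far the raised control signal at Cd4 reached beyond the NKT region was not analysed here, since tags outside listed regions are not part of the lists.

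The endogenous Tcra gene, whose product the transgene encodes in rearranged form, lies on chromosome 14. None of the 85 NKT and 187 injected-thymocyte regions listed on that chromosome reached a control density of 5. The highest values there were 4.50 and 4.05, and the most control tags in a region 20 and 8. Over the whole lists only 0.902% of NKT and 0.498% of injected-thymocyte regions reached a control density of 5. The count on chromosome 14 therefore cannot show anything about copies of Tcra DNA. The NKT region with 20 control tags is chr14:43998379-43998545, named above for its control tags above ChIP tags. Its control density was the 4.50 given here, against a list median of 1.01. Where the listed regions of chromosome 14 lie relative to Tcra was not analysed here. Copies of Cd4 or Tcra DNA were measured here in no other way than through the control column, and their part in the ChIP tags at Cd4 was not tested.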

How the data were processed

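For each Egr2 library the authors deposited a peak list. The input and IgG libraries of the 4 in the series were not analysed here on their own. The submitters' processing notes name Bowtie and the mm9 build, and no peak caller. Library preparation used 100 ng of ChIP DNA, 16 PCR cycles and fragments of 150 to 400 bp, per the labels' protocols. The deposited lists give a signal (ChIP and control tag density at the summit, scaling not stated), a ratio (fold of these densities), whole counts of ChIP and control tags per region, strand shift, strand correlation and −log10 q. These are the authors' values for each peak. Numbers run to 4975 and 2885, and 759 and 889 of these are absent from the lists as analysed, for injected thymocytes and NKT cells. Total depths were not given.

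Tag ratios were scaled by the factor that makes the deposited tag enrichment equal to the ratio of ChIP to control tags in regions with over 50 control tags (7 injected-thymocyte and 17 NKT regions). That the factors, 0.742 and 1.14, reflect depth is an assumption. Intervals are 95% exact (Clopper-Pearson), and PCR duplicates may make them too narrow. Whether positions count from 0 or 1 was not given. The locus, window and comparisons were chosen with earlier results of these data known. Named regions were all those in the window, their nearest listed neighbours, regions with a control density as high as the smallest listed ChIP density, and those with more scaled control than ChIP tags. Python 3.11.15, pandas 2.3.3 and scipy 1.17.1 were used.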

Additional observations from a re-analysis of the deposited data

Results flagged for a closer look

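The scaled ChIP to control tag ratio of the Cd4 region lay on opposite sides of 1 in the libraries: it was 0.768 in NKT cells and 2.07 in injected thymocytes. With 1 library per condition the difference was not tested.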

How the results depend on the processing

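Among 38 alternatives, 21 were counted as the same, 16 as moved and 1 as changed in direction. Values counted as the same were not always near the reported one. The thymocyte median control density at matched summits fell from 0.0502 to 0.00570 with summits at most 50 bp apart. The NKT share of regions with more control than ChIP tags rose from 0.251% to 0.451% without scaling. Of the 21, 4 are tied to the deposited tag enrichment that defines the scale factor, so their equal values say nothing about stability. The NKT tag ratio at Cd4, 0.768, became 0.676 without scaling and turned to 4.99 when taken from the densities at the summit. The lowest summit fold of that list was 2.50, so any tag ratio below 1 had to change direction there. The cause of the difference was not tested. Cd4 counted as shared became 0 with summits within 100 bp and 0 with a reciprocal overlap of 50%. The share of regions with more control than ChIP tags became 0.0237% without scaling in injected thymocytes and, among regions with at least 50 control tags, 11.1% there and 23.5% in NKT cells. The share with raised control density became 4.89% and 7.62% at a limit of 3, and 0.0474% and 0.150% at a limit of 10, in injected thymocytes and NKT cells. In the upper 50% of the list by density, the percent of injected-thymocyte regions at or below Cd4 became 99.2% for control density, 91.4% for control tags per kb and 34.7% for peak correlation, and the percent of NKT regions became 89.4% for peak shift. Among NKT regions at least 1000 bp wide, an alternative chosen after seeing the data, it became 50% for shift and 100% for correlation. No paired analysis was possible because each condition has 1 library. The thymocyte values at Cd4 rest on 14 control tags, which sets their precision.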
